A study of Homo sapiens with 4 samples.

Results

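The microRNAs (miRNAs) miR-221 and miR-222 are described here across small RNA libraries of the cell line H661, which was established from a human large cell carcinoma of the lung. Their members were taken by name, both arms of both hairpins, which gave 4 of the 826 mature miRNAs listed (hsa-miR-221-3p, hsa-miR-221-5p, hsa-miR-222-3p and hsa-miR-222-5p, written below without the species prefix). Cells in one group received 2.5 µM entinostat, a benzamide drug that blocks histone deacetylases of class I, and cells in the other received the solvent dimethyl sulfoxide (DMSO), both for 8 h in RPMI1640 with serum. Each group had 2 libraries, and the comparison asks how the level of each arm differed after treatment. H661 is 1 cell line, and nothing in the labels ties replicates to separate cultures. The spread that p-values are measured against may therefore be technical.

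Each miRNA hairpin is cut by Dicer into a duplex of a 5p and a 3p arm, of which one is usually kept in Argonaute as the guide and the other degraded. The guide finds messenger RNAs mainly through its seed, the bases 2 to 8 from its 5′ end. For miR-221 and miR-222 the 3p arm is the usual guide, and both are known in human cells for lowering the cyclin-dependent kinase inhibitors CDKN1B (p27) and CDKN1C (p57) and the receptor tyrosine kinase KIT. They are often abundant in carcinomas, and in lung cancer cells they have been tied to signalling by the receptor MET and to resistance to the death ligand TRAIL.

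The mature sequences are shown because the paired guides share a seed, which is in capitals. They are from RefSeq (GRCh38.p14), where 3 of the 4 arms were matched by name, all on the minus strand: miR-221-3p at chrX:45746180-45746202, miR-222-3p at chrX:45747036-45747056 and miR-222-5p at chrX:45747073-45747094.
miR-221-3p: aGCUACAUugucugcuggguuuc
miR-222-3p: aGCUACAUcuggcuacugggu
miR-222-5p: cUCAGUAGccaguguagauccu
The 3p arms were identical over their first 8 bases and differed at 10 of the 21 positions that both have. Counted from 1 at the 5′ end, with the base of miR-221-3p first, the differences were U9C, G10U, U11G, C12G, U13C, G14U, C15A, U16C, G17U and U20G. A read through the 3′ part of either arm therefore tells them apart. Among 2370 human mature miRNAs in the sequence table, 2 carried this seed, the 3p arms themselves, and 1 carried the seed of miR-222-5p.

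Both hairpins lie in the same orientation on the X chromosome, and they are shown because the arm balance below depends on which side of each is counted. The matched arms are in capitals, MIR221 is at chrX:45746157-45746266 and MIR222 at chrX:45747015-45747124 (GRCh38, minus strand).
MIR221: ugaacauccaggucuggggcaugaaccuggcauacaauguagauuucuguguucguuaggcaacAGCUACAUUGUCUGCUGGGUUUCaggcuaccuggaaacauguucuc
MIR222: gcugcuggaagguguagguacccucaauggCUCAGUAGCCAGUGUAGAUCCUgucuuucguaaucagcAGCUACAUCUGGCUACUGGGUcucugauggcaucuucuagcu
In GENCODE release 29 both are inside the intron of MIR222HG-201, a transcript of the long non-coding RNA gene MIR222HG with 2 exons (chrX:45745211-45770274, minus strand). The hairpins are 748 bases apart. MIR222 begins 23150 bases and MIR221 24008 bases downstream of the annotated start of the host gene, and MIR221 ends 56 bases before its last exon. These positions were joined by name, since the sources used here give neither the build nor the miRNA annotation of the deposited tables.

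The libraries held 547875 and 753104 miRNA counts with entinostat, against 938559 and 561485 with DMSO. A level in CPM is the count of a miRNA per 1e+06 counts, with library sizes scaled by the TMM method (trimmed mean of M-values). Nothing was spiked in, so every level is relative to the other miRNAs of its library. In such bulk libraries, fewer cells with a miRNA and less of it per cell cannot be told apart. Over the 401 miRNAs tested, the edgeR quasi-likelihood test called 0 after Benjamini-Hochberg adjustment at 0.05 (0% of those tested, with 27 or 6.73% at an unadjusted p under 0.05). DESeq2, run on all 826 names without the filter on low counts, called 0 as well, with 11 at an unadjusted p under 0.05. On the 401, limma-voom called 0, with 31 at an unadjusted p under 0.05, and an edgeR likelihood ratio test called 4. Without entinostat replicate 1 the quasi-likelihood test called 6. All 4 arms of miR-221 and miR-222 passed the filter on low counts, 0 of the 4 were called, and 0 of the 4 had an unadjusted p under 0.05.

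The guide miR-221-3p stood higher in both entinostat libraries than in both DMSO libraries, by a margin that did not pass the test. It had 5373 and 5162 CPM with entinostat, from 2919 and 3916 counts, against 4519 and 4952 CPM with DMSO, from 4222 and 2780 counts. The groups did not overlap, as was also the case with entinostat higher in 20.7% of all tested miRNAs. Means were 5268 ± 149 CPM with entinostat and 4735 ± 306 CPM with DMSO (SD, n = 2 each). The fold change was 1.11 with a 95% interval of 0.972 to 1.27 (0.15 ± 0.09 as log2 with its SE; edgeR adjusted p = 0.595). Without DMSO replicate 1, the lower of the DMSO libraries for this arm, the log2 fold change was 0.09.

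The guide miR-222-3p, with the same seed and from the same host intron, lay on the other side of 0. It had 3961 and 4014 CPM with entinostat, from 2152 and 3045 counts, against 4309 and 4323 CPM with DMSO, from 4026 and 2427 counts. Both entinostat libraries were below both DMSO libraries, as was the case for 20% of all tested miRNAs; in either direction, groups did not overlap in 40.6%. Means were 3988 ± 37.4 CPM with entinostat and 4316 ± 10.1 CPM with DMSO (SD, n = 2 each). The fold change was 0.924 with a 95% interval of 0.815 to 1.05 (-0.11 ± 0.08 as log2 with its SE; edgeR adjusted p = 0.640). For neither guide did the interval reach a 1.5-fold difference in either direction.

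**Figure D1:**
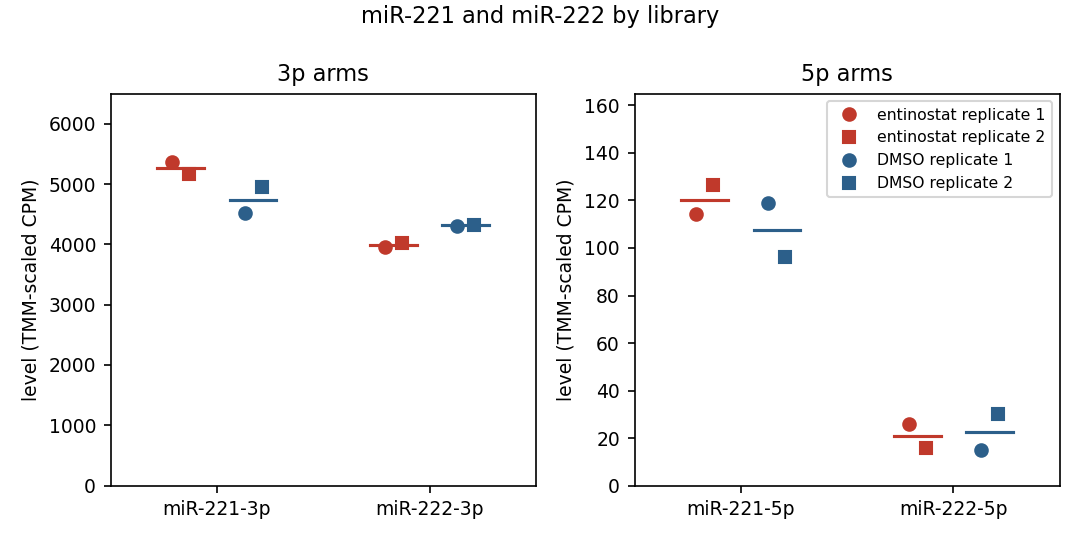
Level of each arm in TMM-scaled CPM (linear axes from 0) for the entinostat libraries (red) and the DMSO libraries (blue), with a line at each mean of 2. For miR-221-3p both entinostat points lie above both DMSO points, for miR-222-3p both lie below, and the points of both 5p arms overlap between treatments.

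The minor arm miR-221-5p, whose fate in most cells is degradation, was counted at 114 and 127 CPM with entinostat, against 119 and 96.2 CPM with DMSO. These values rest on 62 and 96 counts with entinostat and 111 and 54 counts with DMSO, and the groups overlapped. The log2 fold change was 0.15 with a 95% interval of -0.28 to 0.58 (edgeR adjusted p = 0.832). Leaving out DMSO replicate 1 gave 0.33 and leaving out DMSO replicate 2 gave 0.02, so the value depended on which DMSO library was kept.

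The other minor arm, miR-222-5p, was near the lower end of what could be tested. It had 14 and 12 counts with entinostat, against 14 and 17 counts with DMSO. As levels these were 25.8 and 15.8 CPM with entinostat and 14.98 and 30.3 CPM with DMSO, so the spread within each treatment exceeded the difference between the means of 20.8 and 22.6 CPM. The log2 fold change of -0.07 had a 95% interval of -1.23 to 1.08 (edgeR adjusted p = 0.975). As a fold, that interval ran from 0.427 to 2.11, so the few counts of this arm leave its true fold open between those bounds. The sign of the change turned with upper quartile factors, with limma-voom and without DMSO replicate 2 or entinostat replicate 2.

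**Figure D2:**
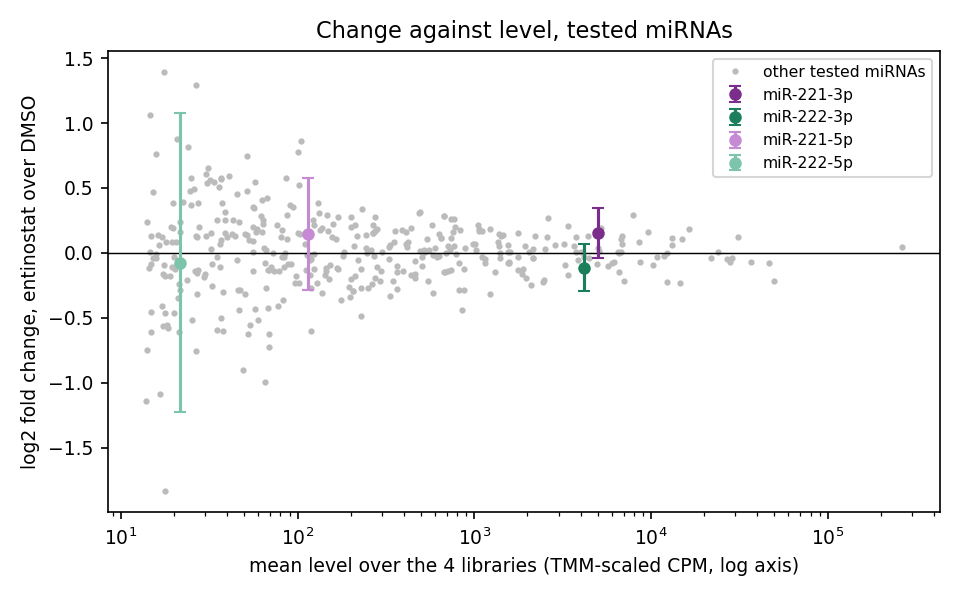
Log2 fold change of entinostat over DMSO against mean level (log axis) for the 401 tested miRNAs (grey), with the 4 arms in colour and bars for their 95% intervals. All 4 intervals cross 0, and they widen from the 3p arms at 5001 and 4152 CPM to miR-222-5p at 21.7 CPM.

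Across 16 other settings the log2 fold change of miR-221-3p stayed above 0 and that of miR-222-3p below 0, and no arm had an adjusted p under 0.05 in any of them. Values of the 5p arms moved most when a library was left out.

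**Figure D3:**
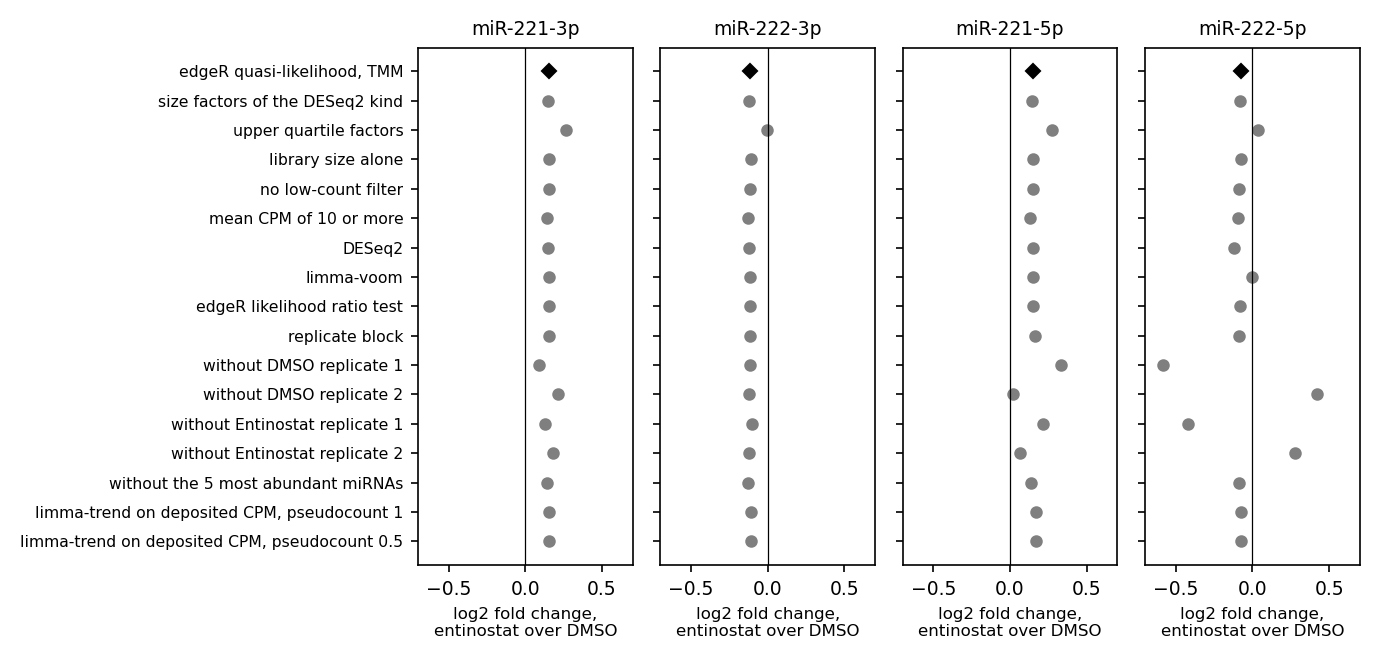
Log2 fold change of entinostat over DMSO for each arm under the edgeR quasi-likelihood test (diamond) and 16 alternatives (circles). Values of the 3p arms stay on one side of 0, with miR-222-3p at -0.002 under upper quartile factors, while miR-222-5p ranges from -0.58 to 0.42.

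In the order of mean level over the 4 libraries, miR-221-3p was the 38th, miR-222-3p the 44th, miR-221-5p the 228th and miR-222-5p the 355th of 826 names. Mature miRNAs have nearly one length, so CPM values of different miRNAs are set side by side here without a length correction, but ligation can recover some sequences better than others. At 5001 ± 365 CPM (SD over 4 libraries), miR-221-3p stood between let-7a-5p at 5052 ± 350 CPM and miR-182-5p at 4981 ± 164 CPM. At 4152 ± 191 CPM, miR-222-3p stood between miR-339-5p at 4170 ± 315 CPM and miR-3180 at 3997 ± 166 CPM. None of these neighbours differed from the arm beside it by more than the spread over libraries. The same held for miR-221-5p (114 ± 12.9 CPM) beside miR-125b-1-3p (116 ± 14.5 CPM) and miR-3074-5p (113 ± 6.24 CPM). It also held for miR-222-5p (21.7 ± 7.53 CPM) beside miR-3187-3p (21.7 ± 6.74 CPM) and miR-323a-5p (21.5 ± 4.15 CPM).

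As a share of all miRNA counts, the 4 arms together took 0.939% and 0.939% with entinostat, against 0.892% and 0.940% with DMSO. Exact Clopper-Pearson 95% intervals were 0.914 to 0.965% and 0.917 to 0.961% with entinostat, and 0.873 to 0.911% and 0.915 to 0.966% with DMSO. Such intervals cover counting error only, since no molecular identifiers are named. DMSO replicate 1 was the library below the rest, and without it the difference between treatments was -0.000959 percentage points.

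Because the 3p arms have one seed, their counts were also summed, as was done for the other listed miRNAs with a matched sequence and a shared seed. The filter and the TMM scaling were computed anew on these sums, so levels differ slightly from the sums of the CPM above. The seed GCUACAU summed to 9363 and 9175 CPM with entinostat, against 8812 and 9259 CPM with DMSO, and the groups overlapped. Its log2 fold change was 0.04 with a 95% interval of -0.13 to 0.20. It was the 19th highest of 729 seed groups and unmatched single names. Of the 826 listed names, 729 had a matched sequence. The others, miR-30b-5p among them, stayed single, so some groups may be incomplete. The sum of the 3p arms lay closer to 0 than either member, whose signs were opposite.

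The balance between the guides was then compared within libraries, where library scaling cancels out. The count of miR-221-3p was 1.36 and 1.29 times that of miR-222-3p with entinostat, against 1.05 and 1.15 times with DMSO. As a share of their joint counts, miR-221-3p made up 57.6% (exact Clopper-Pearson 95% interval 56.2 to 58.9%) and 56.3% (55.1 to 57.4%) with entinostat, against 51.2% (50.1 to 52.3%) and 53.4% (52.0 to 54.8%) with DMSO. Both entinostat libraries lay above both DMSO libraries. The log2 ratios of the treatments did not overlap in 61.3% of 62 neighbouring pairs within genomic clusters, this pair included. Pairs were formed from the most abundant arm of each name matched to a single hairpin. Names matched to several hairpins were left out, so some pairs hold a minor arm, such as miR-24-2-5p or miR-30c-1-3p. The pair of miR-125b-5p and miR-125b-1-3p came from a shared hairpin. The intervals hold counting error only, and replicate libraries varied by more than that.

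The difference in mean log2 ratio was 0.27 (1.21-fold), with means of 0.40 ± 0.05 with entinostat and 0.13 ± 0.09 with DMSO (SD, n = 2 each; two-sided exact permutation test, p = 0.333, the smallest p that 2 libraries against 2 allow). It ranged from 0.21 to 0.33 as each library was left out. A joint edgeR model (diffSpliceDGE) was fitted to 28 genomic clusters, with arms picked as for the neighbouring pairs. This comparison was chosen after seeing the data. The cluster of miR-221-3p and miR-222-3p had a diffSpliceDGE unadjusted p of 0.0397 and an adjusted p of 0.144. In that model 0 clusters (0%) passed an adjusted p of 0.05, and 9 of 28 (32.1%) had an unadjusted p under 0.05.

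Shifts of this size or larger were also seen in other neighbouring pairs of these libraries. Of those 62 neighbouring pairs, 26 differed by at least as much as miR-221-3p and miR-222-3p, that pair included. Many of the larger differences were in pairs with a member of few counts, down to 39 over the 4 libraries. Among the 18 pairs with 1000 or more counts in both members, 72.2% did not overlap and 5 differed by at least as much, again counting the pair itself. The median absolute difference of those 18 pairs was 0.20 on the log2 scale, below the 0.27 of miR-221-3p and miR-222-3p.

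**Figure D4:**
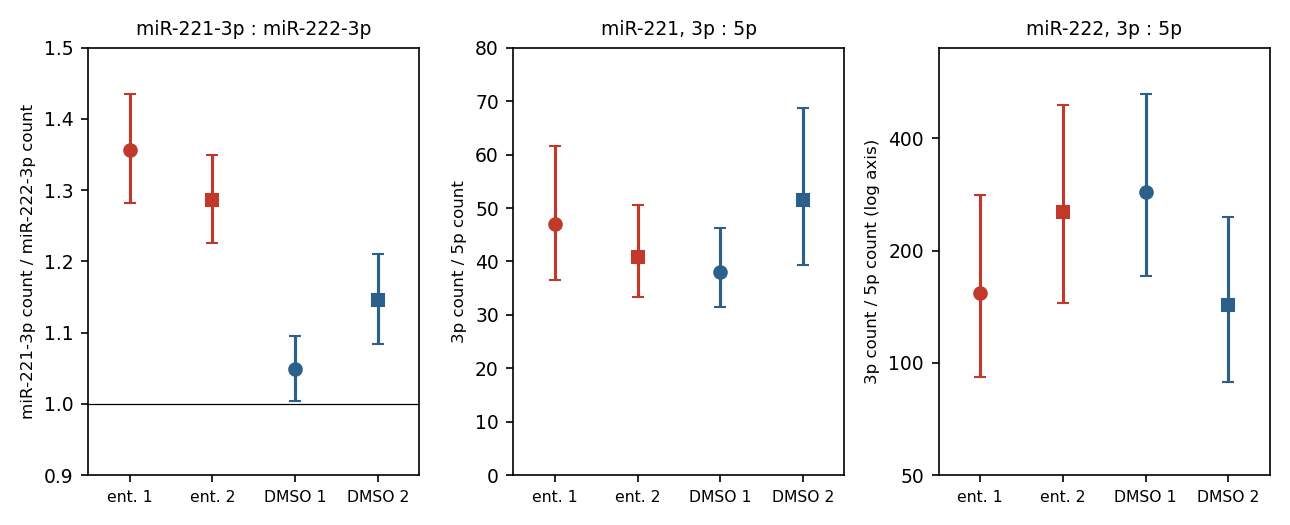
Count ratios within each library, entinostat libraries in red and DMSO libraries in blue, with exact 95% intervals for counting error; the axis of the left panel starts at 0.9 and that of the right panel is logarithmic. The ratio of miR-221-3p to miR-222-3p is 1.29 to 1.36 with entinostat and 1.05 to 1.15 with DMSO, while the 3p to 5p ratios of each hairpin overlap between treatments.

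Arm balance within each hairpin gave no such separation between treatments. For miR-221 the 3p arm was counted 47.1 and 40.8 times as often as the 5p arm with entinostat, against 38.0 and 51.5 times with DMSO. The difference in mean log2 ratio was -0.01 (two-sided exact permutation test, p = 1). For miR-222 the 3p arm was counted 154 and 254 times as often as the 5p arm with entinostat, against 288 and 142.8 times with DMSO. Here the difference was -0.04 (two-sided exact permutation test, p = 1), and the highest and the lowest of the 4 ratios were both in DMSO libraries.

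The edgeR function diffSpliceDGE was run across the 92 hairpin names with both arms tested. Testing each arm against its hairpin, it called arms in 0 hairpins at an adjusted p under 0.05 (0%, with 8.7% at an unadjusted p under 0.05). Testing each hairpin as a whole, the level used for clusters above, it called 2, let-7b and let-7e (2.17%, with 9.78% at an unadjusted p under 0.05). These 2 are named after their values were seen. For miR-221 and miR-222 the adjusted p was 1.00 at both levels. The log2 ratio did not overlap between treatments in 33.7% of these hairpins, and miR-221 and miR-222 were not among them. The sign of the difference turned for miR-221 without replicate 2 of either treatment and for miR-222 without replicate 1 of either.

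The 3p arm held a larger share of miR-222 than of miR-221 in each library. Over the 4 libraries together, the 3p arm made up 97.7% of the counts of miR-221 and 99.5% of those of miR-222. In odds, 3p dominance was greater for miR-222 by 3.26 times (exact 95% interval 1.80 to 6.33) and 6.22 times (3.39 to 12.5) in the entinostat libraries, and by 7.56 times (4.31 to 14.3) and 2.77 times (1.58 to 5.12) in the DMSO libraries. These intervals cover counting error only, and the odds ratio varied between libraries of one treatment. The direction was the same in 4 of 4 libraries. Recovery in library preparation can differ between arms, and its part in this difference was not tested.

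Such dominance placed both hairpins near the 3p end of all hairpins with both arms tested. By 3p share miR-222 was the second and miR-221 the 12th of 92. In 52 of the 92 the 3p arm had the larger count, and the larger arm held a median of 91.4% of the counts.

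**Figure D5:**
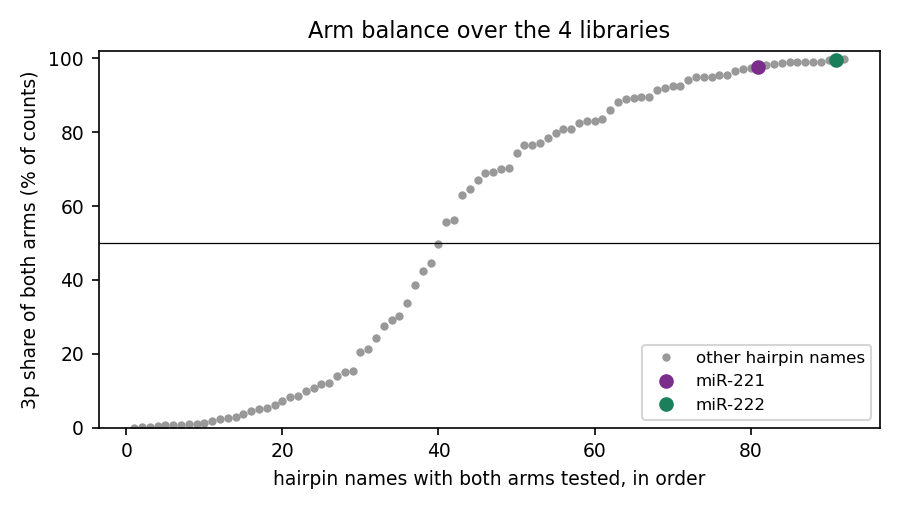
Share of counts on the 3p arm, in percent over the 4 libraries together, for the 92 hairpin names with both arms tested, in rising order. The line marks 50%; miR-221 at 97.7% and miR-222 at 99.5% lie at the upper right.

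The miRNAs most like each guide across the 4 libraries were found by the root mean square difference of log2 levels, each centred on its own mean, among 234 miRNAs of 100 CPM or more. This is a description over 4 libraries that share their depth and scaling. For miR-221-3p the nearest were miR-9-5p (0.0163), known from neural tissue, miR-362-5p (0.0236) and let-7e-5p (0.0258), against a median of 0.140. For miR-222-3p they were miR-10b-5p (0.0206), from the HOXD region, miR-185-5p (0.0222) and miR-532-5p (0.0244), against a median of 0.125. The distance between the guides themselves was 0.144, above both medians.

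Other miRNAs that literature ties to the same proteins were followed as lists, and 0 members of any list were called. All tested miRNAs had a median log2 fold change of 0.00466, with 208 above 0 and 193 below. Of 6 tested arms from miRNAs described with EGFR or MET signalling beside miR-221 and miR-222, 3 lay above 0 and 3 below (median 0.04). Counting only the most abundant arm of each of these 4 miRNAs, 2 lay above 0 and 2 below (median 0.04). The most abundant of them had log2 fold changes of -0.07 for miR-30c-5p, 0.16 for miR-103a-3p and 0.15 for miR-30c-2-3p, a minor arm.

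Of 12 tested arms from miRNAs described as acting on CDKN1B or CDKN1C, 8 lay above 0 and 4 below (median 0.09), but these include minor arms with other seeds. Among the most abundant arms of the 6 miRNAs, 4 lay above 0 and 2 below (median 0.09). They were led in abundance by miR-24-3p at 0.11, miR-92b-3p at -0.04 and miR-25-3p at 0.13. On the X chromosome, where miR-221 and miR-222 lie, 27 other arms were tested, with 16 above 0 and 11 below (median 0.04). Only names whose every matched hairpin lies on that chromosome were counted, and 686 of the 826 listed names had a matched position. Among the most abundant arms of these miRNAs, 12 of 21 lay above 0 and 9 below (median 0.02). The most abundant were miR-363-3p at 0.004, miR-361-3p at -0.21 and miR-532-5p at -0.13 (edgeR adjusted p = 0.990, 0.595 and 0.640). Upper quartile factors alone shifted the median of all tested miRNAs to 0.12.

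Vessel wall cells are rich in miR-221 and miR-222, so markers of such cells were read beside them. The endothelial miR-126, both arms summed, had 2251 and 1704 CPM with entinostat, against 1811 and 1997 CPM with DMSO, and the groups overlapped. Smooth muscle and fibroblast miRNAs (miR-143-3p and both arms of miR-145) summed to 112 and 105 CPM with entinostat, against 70.6 and 90.8 CPM with DMSO. These sums did not overlap, as in 20.7% of tested miRNAs with entinostat higher. The main member, miR-143-3p, did overlap, at 92.03 and 71.2 CPM with entinostat against 58.9 and 83.7 CPM with DMSO, while miR-145-5p had 9 and 26 counts with entinostat against 11 and 4 with DMSO. Every library is of the cell line H661. Where these marker counts come from, and any part of such cells in the level of miR-221-3p, was not tested. The matched blood miRNAs, miR-486-5p and miR-150-5p, summed to 193 and 241 CPM with entinostat and 231 and 220.9 CPM with DMSO. Nearly all of this was miR-486-5p, since miR-150-5p had 3 and 0 counts with entinostat and 0 and 2 with DMSO. The other blood miRNAs looked for, miR-451a, miR-144, miR-223 and miR-142, matched no listed name. The liver miRNA miR-122-5p had 0 and 0 counts with entinostat and 5 and 0 with DMSO. The skeletal muscle miRNAs miR-1-3p and miR-133a-3p had 7 and 5 counts together with entinostat and 9 and 3 with DMSO, while miR-133b and miR-206 matched no listed name.

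Seed matches in known target genes are shown so that the shared seed can be read against them; messenger RNA was not measured in these libraries. The motif ATGTAGC, the reverse complement of the seed, was searched on the sense strand of the longest annotated 3′ UTR of each gene in GENCODE release 29. Of 7 genes chosen from the literature, CDKN1B and KIT held 2 matches each, CDKN1C, TIMP3, BBC3 and ESR1 held 1 each, and FOXO3 held none in this window. Among 19038 genes with a 3′ UTR of 20 bases or more, 8.03% held at least 1 match, at a median UTR length of 1091 bases, against lengths of 703 to 4982 bases in the 7 genes. Since the 7 genes were chosen as known targets, their matches are no test against that share. The matches of the paired cell cycle inhibitors and of BBC3, which encodes the apoptosis protein PUMA, are printed with the motif in capitals. They are at chr12:12721214-12721235 and chr12:12721287-12721308 (plus strand), chr11:2883828-2883849 (minus strand) and chr19:47221699-47221720 (minus strand), all GRCh38.
CDKN1B first match: tctaaaagcgttggATGTAGCa
CDKN1B second match: agtttttaccttttATGTAGCa
CDKN1C match: ggctgggaccgttcATGTAGCa
BBC3 match: actttctctgcaccATGTAGCa
Of all 8 matches, the base after the motif was A in 7, these 4 among them, and T in the match of TIMP3. A match is a stretch of letters only, and its use in H661 cells was not measured.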

How the data were processed

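Small RNA of 4 libraries (2 entinostat, 2 DMSO) was counted by the authors as whole-number counts per mature miRNA name, and the deposited CPM are these counts per 1e+06 counts of a column, without a composition factor. Per the labels' protocols, RNA was taken with TRIzol and 1 µg went into New England Biolabs small RNA reagents. The submitters' processing notes name bcl2fastq 2.18. Aligner, counter, annotation and any rule for reads shared by similar miRNAs are not stated in the sources at hand.

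Counts were filtered by filterByExpr (minimum count 10, minimum total 15), scaled by TMM and tested with edgeR 4.0.16 (R 4.3.3). Treatment was the single term, with p adjusted over all 401 tested rows. Intervals come from the fitted standard error. Totals of 547875 to 938559 counts put a count of 0 below 3.21 to 5.52 CPM. Alternatives used DESeq2 1.42.0, limma 3.58.1 and other scalings and filters. Ratios were tested by exact permutation with SciPy 1.17.1. Replicate pairs differed by more than sampling noise (chi-square per degree of freedom, 7.51 in the entinostat pair and 5.93 in the DMSO pair). Named miRNAs were the 4 arms, their neighbours in level, the 3 most alike and the 3 most abundant of each list. Members and lists were chosen with earlier results of these data known, the lists without a database. A further list is not reported here.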

Additional observations from a re-analysis of the deposited data

How the results depend on the processing

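Over 16 alternatives for each arm (64 values), 0 had an adjusted p under 0.05, and the lowest was 0.395, for miR-221-3p with upper quartile factors. Those factors put the median of all tested miRNAs at 0.12 on the log2 scale, and the arms at 0.26 for miR-221-3p, -0.002 for miR-222-3p and 0.0401, a change of sign, for miR-222-5p. The sign of miR-222-5p also turned with limma-voom (0.000311). With each library left out in turn, log2 fold changes ran from 0.09 to 0.21 for miR-221-3p, -0.12 to -0.10 for miR-222-3p, 0.02 to 0.33 for miR-221-5p and -0.58 to 0.42 for miR-222-5p. The log2 ratio of miR-221-3p to miR-222-3p then differed by 0.21 to 0.33. The 3p to 5p difference ran from -0.23 to 0.20 for miR-221 and from -0.54 to 0.47 for miR-222, and that in the joint share of counts from -0.000959 to 0.0469 percentage points. The number of miRNAs called was 0 to 6 with a library left out and 4 with the likelihood ratio test. Causes of these changes were not tested. A lone library of a treatment was taken to vary like the other group. With the replicate number as a block 0 miRNAs were called, and same-numbered libraries deviated with a correlation of -0.13 over 237 miRNAs, so the numbers are not read as pairs. With 12 to 17 counts a library, depth limits miR-222-5p most.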
